A study of Mus musculus and Homo sapiens with 30 samples.

Results

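The genes described here are 35 mouse genes of sugar breakdown and of the response to low oxygen, followed in 2 mammary cell lines in 3 media. They were taken from a list written by gene function, and each was matched by symbol to 1 of the 56980 Ensembl gene IDs of the deposited mouse count table. In this list 22 are glycolysis genes, namely 16 glycolytic enzymes, 3 glucose or lactate transporters and 3 regulators of the glycolytic flux. The other 13 are HIF1 genes outside glycolysis, namely 3 that encode or regulate HIF1 and 10 further targets. After a filter on low counts, 33 of the 35 were tested in E0771 and 32 in NMuMG, and 30 were tested in both lines.

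Of the lines, E0771 derives from a mouse mammary tumour and NMuMG from normal mouse mammary epithelium, although the sample labels list both under breast cancer. Cells were grown for 36 h and then kept for 16 h in control medium (the standard growth medium of the line) or in a mixture of 50% growth medium and 50% medium conditioned by inguinal adipocytes, labelled lean or obese, called the lean and the obese secretome. The growth medium held 10% FBS for both lines. For NMuMG the labels also state insulin at 10 mcg/ml and glucose at 4.5 g/L, and for E0771 they state neither amount. Line and growth medium therefore cannot be told apart. There were 3 libraries of poly(A) RNA per line and medium. The labels name neither the animal species of the fat cells nor separate cultures for the replicates, so p-values measure only the spread between these samples.

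Glycolysis turns glucose into pyruvate in a chain of enzymes that starts with hexokinase and ends with pyruvate kinase, and lactate dehydrogenase then turns pyruvate into lactate, which leaves the cell through monocarboxylate transporters. HIF1 is a transcription factor made of an oxygen-regulated subunit, HIF1A, and the constant partner ARNT. When oxygen is present, prolyl hydroxylases of the EGLN family mark HIF1A protein for destruction. When HIF1A persists, it binds short DNA elements with the core ACGTG or GCGTG and raises the transcription of most glycolytic genes and of genes for blood vessel growth, matrix synthesis and mitochondrial turnover. Many cancer cells express this programme at normal oxygen levels. HIF1A is controlled mainly as a protein, which RNA counts do not measure.

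Promoters of 6 genes are printed because the results turn on these genes: Slc2a1, Slc16a3, Adm and Egln3, which were higher with the lean secretome in at least 1 line, Ldha, whose change differed in sign between the lines, and Pdk1, which was lower in NMuMG. Each runs 5′ to 3′ on the strand of the gene from 250 bases before to 50 bases after the start of transcription, taken from RefSeq on GRCm38.p6, which is not the build the reads were aligned to. Capitals mark ACGTG or GCGTG, searched on both strands, so that CACGT and CACGC are the same motifs on the other strand; ACGTG on both strands overlaps in CACGTG, the E-box bound by other factors.
Slc2a1 (chr4:119108495-119108794, plus strand): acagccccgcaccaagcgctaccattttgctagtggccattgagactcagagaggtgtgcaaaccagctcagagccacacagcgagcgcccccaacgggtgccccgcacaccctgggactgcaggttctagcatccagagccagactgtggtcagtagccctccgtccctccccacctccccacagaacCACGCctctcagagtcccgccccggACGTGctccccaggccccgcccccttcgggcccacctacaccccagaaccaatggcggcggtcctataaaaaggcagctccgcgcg
Slc16a3 (chr11:120948817-120949116, plus strand): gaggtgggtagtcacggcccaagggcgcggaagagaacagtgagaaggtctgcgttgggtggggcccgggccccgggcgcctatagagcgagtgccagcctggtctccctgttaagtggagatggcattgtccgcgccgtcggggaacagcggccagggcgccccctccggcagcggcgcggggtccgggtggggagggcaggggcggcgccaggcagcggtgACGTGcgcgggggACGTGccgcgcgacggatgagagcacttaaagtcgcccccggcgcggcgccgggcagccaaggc
Adm (chr7:110627407-110627706, plus strand): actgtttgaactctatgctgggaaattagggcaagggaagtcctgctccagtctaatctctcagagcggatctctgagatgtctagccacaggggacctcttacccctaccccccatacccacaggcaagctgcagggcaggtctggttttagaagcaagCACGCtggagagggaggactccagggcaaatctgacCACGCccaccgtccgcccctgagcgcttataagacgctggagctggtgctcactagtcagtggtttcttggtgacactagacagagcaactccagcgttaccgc
Egln3 (chr12:54203825-54204124, minus strand): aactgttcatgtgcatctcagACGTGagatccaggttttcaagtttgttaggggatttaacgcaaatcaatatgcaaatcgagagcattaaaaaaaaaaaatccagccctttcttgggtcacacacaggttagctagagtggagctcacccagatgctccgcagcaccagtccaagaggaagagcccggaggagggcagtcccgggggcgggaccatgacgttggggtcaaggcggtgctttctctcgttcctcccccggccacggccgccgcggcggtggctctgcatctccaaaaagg
Ldha (chr7:46845554-46845853, plus strand): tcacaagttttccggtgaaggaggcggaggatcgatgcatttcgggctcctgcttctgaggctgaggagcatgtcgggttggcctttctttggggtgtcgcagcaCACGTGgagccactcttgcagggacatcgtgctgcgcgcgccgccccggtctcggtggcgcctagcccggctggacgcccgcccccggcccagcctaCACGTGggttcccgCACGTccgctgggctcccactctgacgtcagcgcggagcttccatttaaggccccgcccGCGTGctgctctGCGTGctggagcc
Pdk1 (chr2:71872974-71873273, plus strand): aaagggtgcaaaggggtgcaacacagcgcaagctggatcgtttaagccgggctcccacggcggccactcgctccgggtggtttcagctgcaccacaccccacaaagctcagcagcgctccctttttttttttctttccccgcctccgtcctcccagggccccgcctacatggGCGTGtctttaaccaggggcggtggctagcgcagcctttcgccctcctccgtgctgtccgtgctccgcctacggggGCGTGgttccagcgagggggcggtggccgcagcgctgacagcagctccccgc

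The Ldha promoter held 7 matches, counting both strands of 2 CACGTG elements, and that of Slc16a3 held 2, at positions -27 and -14 from the start. Slc2a1, Adm and Pdk1 held 2 matches each and Egln3 held 1. Ldha and Pdk1 have 2 listed promoters each, and the first listed is printed; the other held a match in Ldha and none in Pdk1. The last bases of the printed Ldha promoter were found in no GENCODE M21 transcript of Ldha, while those of the other printed promoters were found in a transcript of their gene. A promoter was listed for 34 of the 35 genes, and in 32 of these at least 1 listed promoter held a match, which is 94.1% against 46.7% of the 27025 genes in the table. The exceptions were Gpi1 and Tpi1. The promoters of these genes were also richer in G and C, with a median of 64.3% against 52.7% over all 32851 promoters of 300 bases, and both motifs contain CG. A match is a description of the letters and not a binding site.

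Total counts per library ranged from 22929035 to 31094119 in E0771 and from 23966897 to 29686456 in NMuMG. Among 6 mammary epithelial markers, E0771 expressed 1 (Krt8) above 1 CPM (the gene's counts scaled to the same library total in every library) in each medium, whereas NMuMG expressed 5 or 6. Their sum moved with the medium in NMuMG, at 6475 to 6825 CPM in control, 6130 to 6453 with the obese and 7161 to 7370 with the lean secretome. Adipocyte markers summed to between 0.751 and 1.61 CPM in E0771 and between 20.0 and 27.1 CPM in NMuMG, where Pparg made up most of the sum and Lep was at 0 in every library. Of 5 fibroblast markers E0771 expressed 3 (Col1a1, Col3a1 and Pdgfra), whose sum moved with the medium: 872 to 977 CPM in control, 641 to 868 with the obese and 333 to 371 with the lean secretome. The part of these movements in the results that follow was not tested, and in bulk RNA fewer cells of a type and less RNA per cell cannot be told apart. Macrophage markers summed to at most 5.98 CPM and endothelial markers to at most 5.62 CPM. In both lines obese replicate 1 lay nearest the lean libraries more often than the other obese libraries did, in 51.8% of the genes called between lean and obese in E0771 and in 52.6% in NMuMG. E0771 lean replicate 3 stood apart from lean replicates 1 and 2, with a chi-square per degree of freedom over genes of 8.44 and 8.16 against 2.30 between those; it changed the lean minus obese calls of Pfkp, Pdk1, Tpi1 and Ldha.

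In control medium the lines differed in the levels of several members of the glycolytic families, while Aldoa and Ldha were the main aldolase and lactate dehydrogenase in both. A gene was called at a Benjamini-Hochberg adjusted p under 0.05 in edgeR's quasi-likelihood test. By this rule 31 of the 35 genes differed between E0771 and NMuMG in control medium, 24 being higher and 7 lower in E0771, while 80.5% of all 16529 genes tested were called (37.1% higher, 43.4% lower). The CPM of the 3 libraries did not overlap between the lines for 33 of the 35, against 82.7% of all genes. The median log2 difference was 0.55 over the 35 genes and -0.08 over all genes, a median that moved by 0.111 when library totals replaced the TMM scaling. For a scale per kilobase of exon, CPM were divided by the joined length of all annotated exons of the gene. That is not the length of the RNA present, so levels of different genes compare only roughly. On this scale Gapdh was highest in E0771 at 865 ± 23.0 CPM per kb (SD, n = 3) and Pkm was highest in NMuMG at 833 ± 22.8.

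At lactate handling, Ldhb and Slc16a3 were each close to absent in 1 of the lines. Ldhb, the lactate dehydrogenase subunit of oxidative tissues, had 0, 0 and 1 counts in the E0771 control libraries against 6.47, 7.05 and 6.83 CPM in NMuMG. The ratio was 522, with a 95% counting interval from 93.7 to 20626. Slc16a3, which encodes MCT4, the lactate exporter of glycolytic cells, showed the reverse. It had 274, 283 and 300 CPM in E0771 and 0.101, 0.153 and 0 CPM (7 counts in all) in NMuMG, a ratio of 3406 with an interval from 1653 to 8472, which covers counting error only. Ldha, the subunit that favours lactate production, and Slc16a1 (MCT1, a lactate transporter of wide expression) were present in both lines, at 612 ± 18.3 and 61.9 ± 1.91 CPM per kb in E0771 and at 413 ± 9.29 and 30.0 ± 0.631 CPM per kb in NMuMG.

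Per kilobase of exon, the phosphofructokinase with the highest level also differed between the lines, whereas Aldoa was the main aldolase in both. Pfkp, the platelet type of phosphofructokinase, reached 21.3 ± 0.508 CPM per kb in E0771 and 1.07 ± 0.0195 in NMuMG, a log2 difference of 4.21 ± 0.0476 (SE). On this scale the muscle type Pfkm was the highest phosphofructokinase in NMuMG (33.8 ± 2.69 CPM per kb) and the liver type Pfkl in E0771 (43.0 ± 0.456). This order rests on the exon lengths used. In CPM, Pfkl was above Pfkm in the NMuMG control libraries (166, 179 and 159 against 111, 123 and 105). In the E0771 control libraries Pfkl and Pfkp overlapped in CPM (283, 287 and 289 against 287, 278 and 291). Aldoc, the brain type of aldolase, was at 21 counts over the 3 E0771 control libraries and at 209 over those of NMuMG, against an Aldoa level of 318 ± 14.8 and 437 ± 12.3 CPM per kb. Outside glycolysis, Ak4, a mitochondrial adenylate kinase, stood at 19.2 ± 0.414 CPM per kb in E0771 and at 0.511 ± 0.0436 in NMuMG. Adm, the vasodilator peptide adrenomedullin, had 1477 counts in the E0771 controls and 0 in those of NMuMG, at least 178-fold higher when 3 counts per library are taken as the floor.

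**Figure D1:**
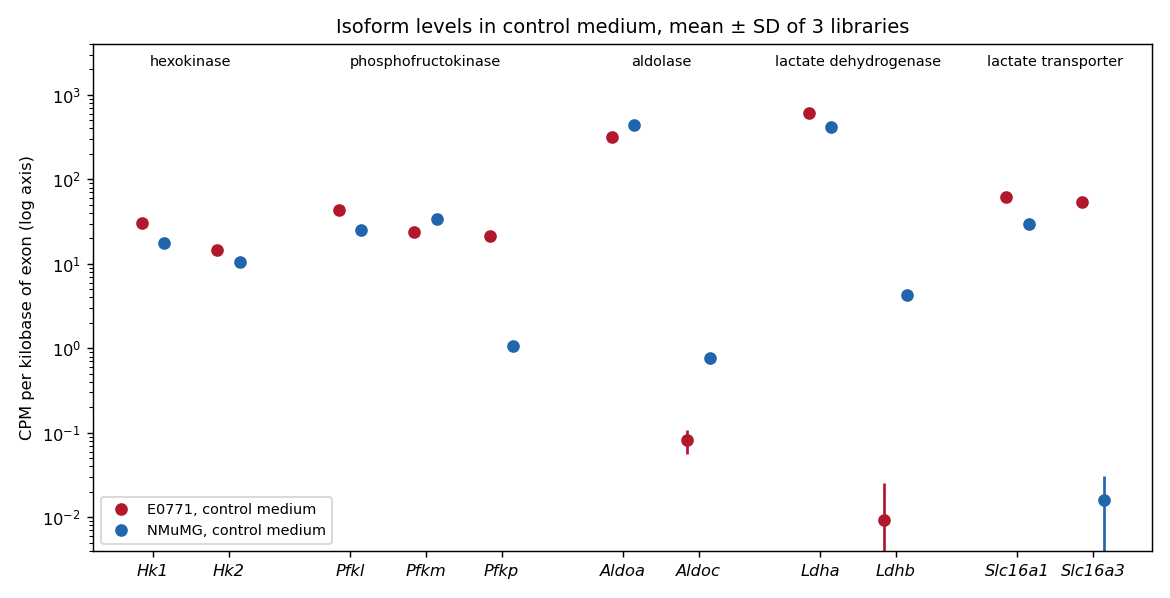
Levels of the isoforms of hexokinase, phosphofructokinase, aldolase, lactate dehydrogenase and the lactate transporters in control medium, in CPM per kilobase of exon on a log axis; points are means and bars SD of 3 libraries of E0771 (red) or NMuMG (blue). Ldhb in E0771 and Slc16a3 in NMuMG lie near the bottom of the axis, where the counts were 1 and 7 in all, and Pfkp stands far apart between the lines.

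With the lean against the obese secretome, E0771 raised the genes at both ends of glycolysis, glucose entry and lactate exit, and most of the HIF1 genes outside glycolysis. NMuMG raised glucose entry to a smaller extent, and of its 16 enzymes 6 rose and 7 fell. In E0771, 22 of the 33 genes tested were called, 18 higher and 4 lower, where 52.7% of all 13813 genes tested were called (25.8% higher, 26.9% lower). Of these the glycolysis genes gave 9 higher and 2 lower of 20, with a median log2 fold change of 0.06, and the other HIF1 genes gave 9 higher and 2 lower of 13, with a median of 0.30, against 0.00 over all genes. In NMuMG, 22 of the 32 genes tested were called, 9 higher and 13 lower, where 35% of 15014 genes were called (17.6% higher, 17.4% lower). The glycolysis genes gave 7 higher and 9 lower of 21 with a median of -0.03, and the other HIF1 genes 2 higher and 4 lower of 11 with a median of -0.10. Of the genes called in E0771 and in NMuMG, obese replicate 1 lay nearest the lean mean for 20 of 22 and 17 of 22. Without it, 22 were called in each line, with 18 and 9 of them higher. Lean and obese libraries did not overlap in CPM for 26 of 33 genes in E0771 (60.3% of all genes) and for 23 of 32 in NMuMG (45.2% of all genes). Median log2 CPM of the listed genes tested was 7.28 against 4.79 over all genes in E0771, and 6.53 against 4.47 in NMuMG. Small changes are called more readily at higher counts, so the shares called do not compare sizes of change. The median absolute log2 fold change was 0.28 against 0.24 over all genes in E0771, and 0.15 against 0.16 in NMuMG.

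**Figure D2:**
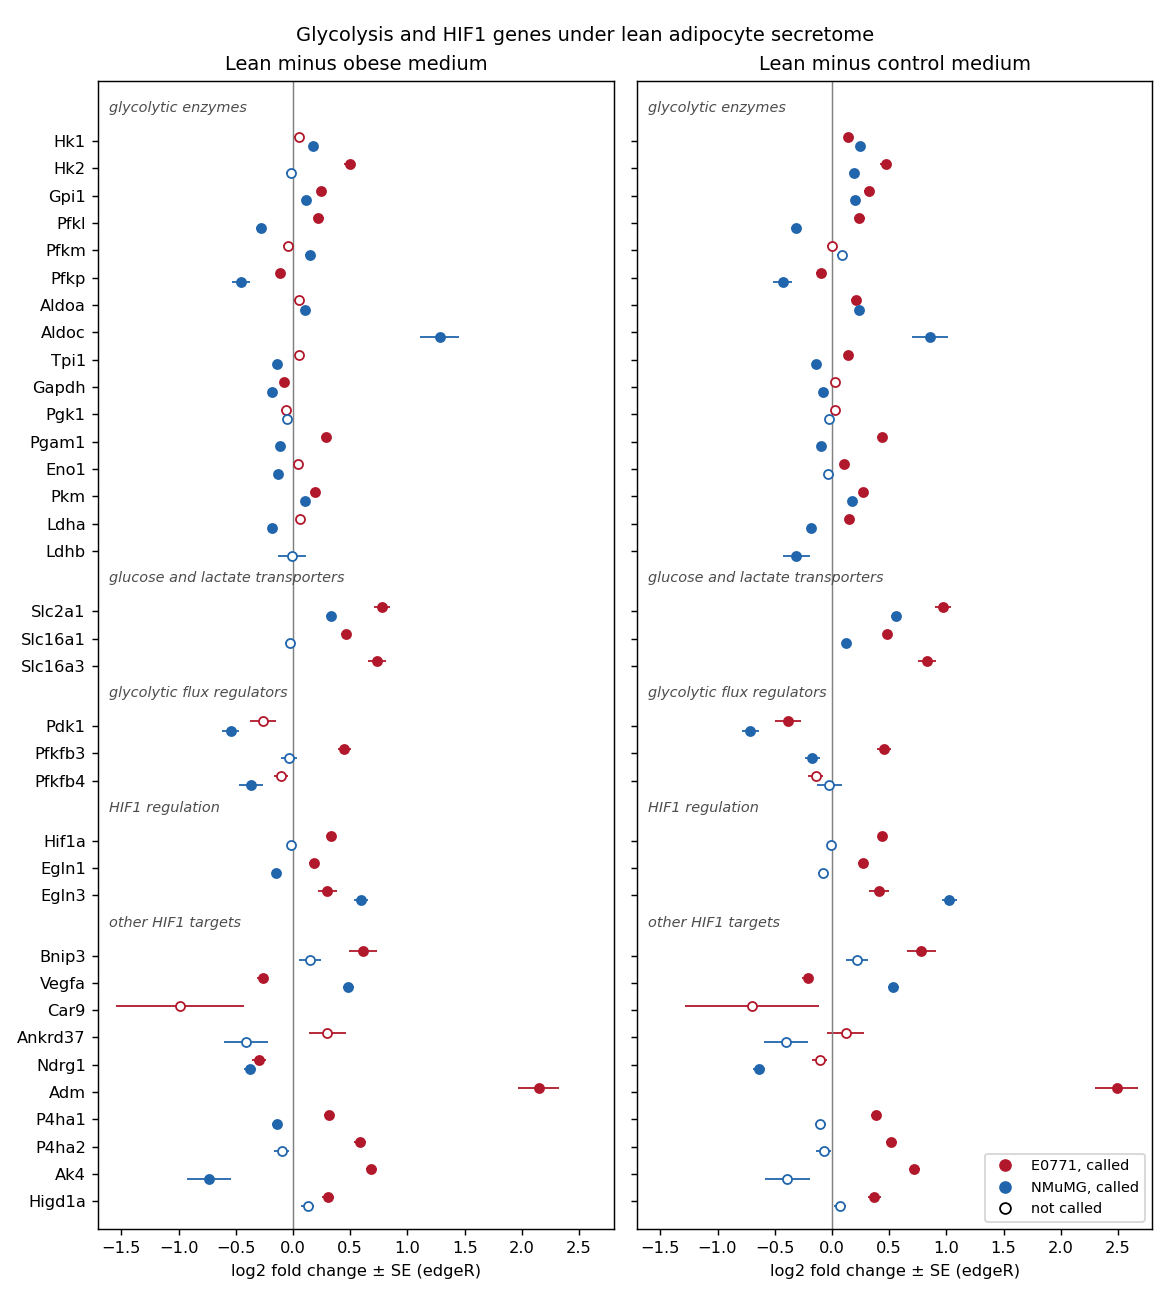
Log2 fold change ± SE of each tested gene, grouped by role, for lean minus obese medium (left) and lean minus control medium (right), in E0771 (red) and NMuMG (blue); filled points were called at an adjusted p under 0.05. The transporters and most HIF1 genes of E0771 lie right of 0, Adm farthest at 2.15 and 2.49, while the enzymes of NMuMG lie on both sides.

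The lean secretome against control medium, which shares the lean libraries with the comparison above, gave wider differences in E0771. There 26 of 33 genes were called, 23 higher and 3 lower, where 56.3% of all genes were called (27.3% higher, 29.0% lower). The glycolysis genes gave 14 higher and 2 lower of 20 (median 0.18) and the other HIF1 genes 9 higher and 1 lower of 13 (median 0.38), against a median of -0.01 over all genes. In NMuMG 20 of 32 were called, 10 in each direction, where 38.2% of all genes were called (19.1% in each direction). Lean and control libraries did not overlap for 27 of 33 genes in E0771 (61.4% of all genes) and 21 of 32 in NMuMG (48.0%). The 16 enzymes together took 1.42% ± 0.0354 (SD, n = 3) of all counts in E0771 control medium, 1.51% ± 0.0394 with the obese and 1.57% ± 0.0255 with the lean secretome. In NMuMG these shares were 1.31% ± 0.0334, 1.36% ± 0.00842 and 1.35% ± 0.00458. The 13 other HIF1 genes summed to 1067 ± 0.979, 1137 ± 36.4 and 1459 ± 21.2 CPM in E0771 in the same order, and to 601 ± 0.902, 604 ± 3.39 and 639 ± 17.5 CPM in NMuMG.

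Slc2a1 (ENSMUSG00000028645) encodes GLUT1, the main glucose importer of proliferating cells, and its promoter above carries 1 match on each strand. Its 3 E0771 libraries with the lean secretome had 262, 275 and 283 CPM, the obese libraries 181, 148 and 148 CPM and the controls 146, 134 and 136 CPM. All lean libraries were above all others, and obese replicate 1 was the highest of the rest. Relative to obese, lean was higher by 0.78 ± 0.0726 on the log2 scale (SE; adjusted p = 2.76e-06) and relative to control by 0.97. In NMuMG the values were 114, 106 and 119 CPM with lean, 94.2, 86.2 and 86.1 with obese and 75.9, 77.5 and 76.6 in control medium. Here the 3 groups were ordered without overlap, and lean was higher than obese by 0.33 ± 0.0438 (adjusted p = 2.26e-07).

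The lactate transporters rose in E0771. The 3 lean libraries had 526, 533 and 474 CPM of Slc16a3 (ENSMUSG00000025161), the obese ones 343, 287 and 288 and the controls 274, 283 and 300. The lean libraries stood apart, whereas obese and control overlapped. Lean exceeded obese by 0.73 ± 0.0761 on the log2 scale (adjusted p = 1.87e-05). In NMuMG it had at most 5 counts in any library in any medium and was not tested. Slc16a1 had 384, 372 and 401 CPM with lean against 295, 268 and 273 with obese in E0771, a log2 fold change of 0.46 ± 0.0415. In NMuMG its lean and obese libraries overlapped and it was not called between them (-0.03, 95% interval -0.10 to 0.04).

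The plot of single libraries shows the size of these steps beside those of the enzymes and HIF1 targets that follow.

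**Figure D3:**
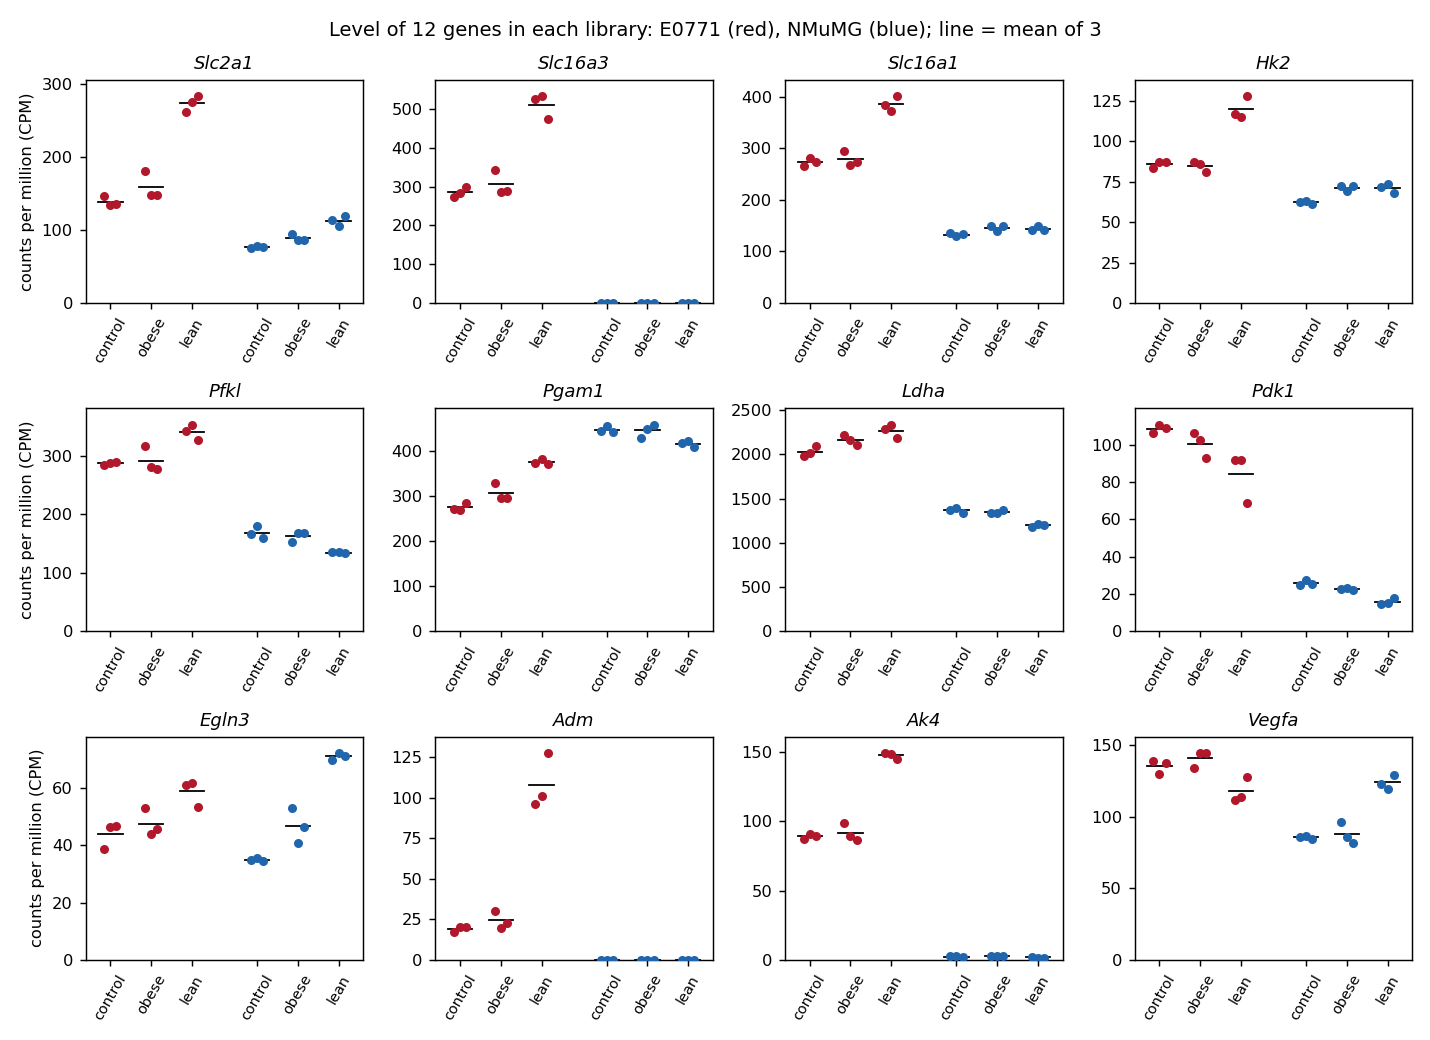
Level of 12 genes in each library in CPM, E0771 in red and NMuMG in blue, with a line at the mean of the 3 libraries of each medium; each vertical axis starts at 0. Slc2a1, Slc16a3, Slc16a1, Hk2, Adm and Ak4 step up with the lean secretome in E0771 (Adm to between 96.1 and 128 CPM), while Pfkl, Pgam1 and Ldha fall with it in NMuMG.

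Along the enzyme chain in E0771, 5 of the 14 enzymes tested rose and 2 fell with the lean against the obese secretome. The number called was near the share over all genes (25.8% higher, 26.9% lower). The median absolute log2 fold change was 0.07 for the enzymes and 0.24 over all genes. Hk2, the inducible hexokinase that traps glucose in the cell, rose most. It had 117, 115 and 128 CPM with lean against 87.3, 86.2 and 80.8 with obese and 83.4, 87.1 and 87.5 in control medium. Lean libraries were all above the others, and obese and control overlapped; the log2 fold change was 0.49 ± 0.0483 (adjusted p = 7.13e-09). Hk1, the housekeeping hexokinase, was not called (0.05 ± 0.0357). Gpi1, glucose-6-phosphate isomerase, rose from 649, 606 and 602 CPM with obese to 729, 747 and 734 with lean, with no overlap (0.24 ± 0.0369).

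Further down, Pfkl, which commits sugar to glycolysis, had 343, 353 and 328 CPM with lean and 316, 280 and 277 with obese in E0771, a log2 fold change of 0.22 ± 0.0452. The platelet type Pfkp fell by 0.11 on the log2 scale (adjusted p = 0.0144), a call lost without lean replicate 3 (adjusted p = 0.0705). Pgam1, phosphoglycerate mutase, had 372, 381 and 370 CPM with lean, 329, 295 and 296 with obese and 272, 269 and 283 in control medium, so that the 3 groups did not overlap. Pgam1 rose by 0.28 ± 0.0418 over obese and by 0.44 ± 0.0420 over control. Pkm, pyruvate kinase, rose by 0.19 ± 0.0355. Gapdh fell by 0.08 with an adjusted p of 0.0406, and this call was lost in 9 of 13 alternatives, with an adjusted p of up to 0.145. Aldoa, Tpi1, Pgk1, Eno1 and Ldha, which carry out central steps and lactate formation, had log2 fold changes between -0.06 and 0.06 and were not called. Without lean replicate 3, Tpi1 (0.10, adjusted p = 0.0240) and Ldha (0.09, adjusted p = 0.0240) were called. Against control medium, 10 of the 14 enzymes were higher with lean and 1 was lower, where 27.3% of all genes were higher and 29.0% lower. Aldoa (0.21), Tpi1 (0.14), Eno1 (0.11), Ldha (0.15) and Hk1 (0.14) were among the higher.

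In NMuMG the enzymes divided: 6 of 16 rose and 7 fell with the lean against the obese secretome. Over all genes 17.6% rose and 17.4% fell. The median absolute log2 fold change was 0.14 for the enzymes and 0.16 over all genes. Both other phosphofructokinases moved against Pfkm. Pfkl had 135, 136 and 133 CPM with lean against 152, 167 and 167 with obese and 166, 179 and 159 in control medium. The lean libraries were below all others, and obese and control overlapped; the log2 fold change was -0.28 ± 0.0413 (adjusted p = 1.91e-06). Pfkp, at a low level in this line, had 11.1, 10.1 and 10.6 CPM against 13.5, 14.5 and 15.1, again with no overlap (-0.45 ± 0.0814). Pfkm, the most abundant form per kilobase here, rose by 0.15 ± 0.0437.

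Several enzymes of the lower chain fell in NMuMG by small and closely measured amounts. Ldha had 1182, 1213 and 1202 CPM with lean, 1338, 1340 and 1372 with obese and 1372, 1395 and 1334 in control medium. Its lean libraries lay below all others, and lean minus obese was -0.18 ± 0.0292 on the log2 scale (adjusted p = 5.01e-06). Gapdh fell by 0.18, Tpi1 by 0.14, Eno1 by 0.13 and Pgam1 by 0.11 on that scale. Pgam1 was lost without obese replicate 3 (adjusted p = 0.0659). Those that rose were Hk1 (0.17), Gpi1 (0.11), Pkm (0.10), Aldoa (0.10), Pfkm and Aldoc, and Aldoa was lost without obese replicate 2 (adjusted p = 0.0505). Aldoc had the largest fold change of any enzyme in this line, with 4.47, 4.26 and 4.77 CPM with lean against 1.67, 1.78 and 2.04 with obese and 2.86, 2.26 and 2.32 in control medium. The difference of lean from obese was 1.28 ± 0.168 on the log2 scale (adjusted p = 1.85e-07), at a level far under that of Aldoa. Pgk1 and Ldhb were not called, and neither was Hk2 (-0.02 ± 0.0438), which rose over control with both secretomes (0.19 with lean, 0.21 with obese).

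Counts of Gapdh, Ldha, Pkm, Eno1, Aldoa, Tpi1 and Pgam1 are less certain than their errors say, since these genes have near-identical processed copies in the mouse genome and the treatment of reads that map to several places was not given in the sources used here.

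The flux regulators did not move together. Pfkfb3 makes fructose-2,6-bisphosphate, the strongest activator of phosphofructokinase. In E0771 it had 66.4, 66.3 and 78.9 CPM with lean, 52.7, 51.1 and 50.7 with obese and 52.6, 48.8 and 51.9 in control medium. The lean group stood above both others, by 0.45 ± 0.0597 over obese (adjusted p = 8.39e-07), while in NMuMG lean and obese overlapped (-0.03 ± 0.0678). Pfkfb4, a related enzyme, was not called in E0771 and fell by 0.37 ± 0.106 in NMuMG. Pdk1 (ENSMUSG00000006494) encodes a mitochondrial kinase that inhibits pyruvate dehydrogenase, and it is a classical HIF1 target with 2 motif matches in the printed one of its 2 listed promoters. In NMuMG it had 14.6, 15.0 and 18.0 CPM with lean, 22.9, 23.2 and 22.4 with obese and 24.8, 27.6 and 25.6 in control medium. The lean libraries were below all others, and the log2 fold change over obese was -0.55 ± 0.0741 (adjusted p = 3.50e-07). In E0771 it had 92.1, 91.8 and 68.7 CPM with lean and 107, 102 and 93.1 with obese, a difference of -0.27 ± 0.113 that was not called (adjusted p = 0.0857). It was called in 4 of 13 alternatives, namely with the replicate block (adjusted p = 0.00545), in the fit of all 18 libraries (adjusted p = 0.0350), with no filter (adjusted p = 0.0472) and without lean replicate 3, where it was -0.13 (adjusted p = 0.0270). Against control it was called in E0771 (-0.38 ± 0.113, adjusted p = 0.0211), a call lost without any one of the control libraries, with an adjusted p of up to 0.0544.

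The 3 listed genes that encode or regulate HIF1, namely Hif1a, Egln1 and Egln3, rose in E0771 with the lean against the obese secretome. Of 10 other genes of the HIF machinery tested there, 3 rose and 4 fell, where 25.8% of all genes rose and 26.9% fell. Hif1a had 492, 478 and 506 CPM with lean, 403, 378 and 388 with obese and 368, 362 and 353 in control medium. The groups were ordered without overlap, and lean exceeded obese by 0.33 ± 0.0368 (adjusted p = 6.02e-08). In NMuMG the 9 libraries lay between 178 and 193 CPM, and the lean minus obese difference was -0.02 with a 95% interval from -0.09 to 0.06. Egln1 (PHD2, the main hydroxylase that marks HIF1A) rose by 0.18 ± 0.0412 in E0771 and fell by 0.15 ± 0.0389 in NMuMG. Egln3 (PHD3, a hydroxylase that is itself a HIF target; ENSMUSG00000035105) rose in both lines. In NMuMG it had 70.0, 72.3 and 71.2 CPM with lean, 53.0, 40.7 and 46.4 with obese and between 34.5 and 35.5 in control medium. The 3 groups did not overlap, and the log2 fold change was 0.59 ± 0.0645 over obese and 1.03 ± 0.0657 over control. In E0771 Egln3 had 61.1, 62.0 and 53.6 CPM with lean against 53.1, 44.0 and 45.6 with obese, with lean replicate 3 and obese replicate 1 nearly level (0.30 ± 0.0847, adjusted p = 0.00798).

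Among the further targets in E0771, 6 of 10 rose and 2 fell between lean and obese, where 25.8% of all genes rose and 26.9% fell. Adm (ENSMUSG00000030790) had the largest fold change of the 33 genes. It had 96.1, 101 and 128 CPM under lean, 30.4, 19.9 and 22.8 under obese and 17.2, 20.4 and 20.0 under control medium. The lowest lean library was 3.16 times the highest of the rest, and lean replicate 3 and obese replicate 1 were the highest of their groups. The log2 fold change was 2.15 ± 0.180 over obese (4.43-fold, adjusted p = 5.80e-05) and 2.49 ± 0.186 over control. In NMuMG no library had more than 2 counts of Adm in any medium, so no response could be measured.

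Mitochondrial and matrix targets followed in E0771. Ak4 had 149, 149 and 145 CPM with lean against 99.0, 89.3 and 86.5 with obese and 87.1, 90.9 and 89.5 in control medium. The lean libraries stood apart, and the log2 fold change over obese was 0.68 ± 0.0478 (adjusted p = 3.57e-11). Bnip3, a receptor for the removal of mitochondria, had 42.0, 40.5 and 31.7 CPM with lean and 28.7, 20.9 and 24.7 with obese, where lean replicate 3 and obese replicate 1 came closest (0.61 ± 0.124, adjusted p = 0.00175). P4ha2 and P4ha1 encode catalytic subunits of the collagen prolyl 4-hydroxylase. P4ha2 had 80.8, 83.5 and 85.1 CPM with lean against 58.6, 55.1 and 52.0 with obese (0.58 ± 0.0509), and P4ha1 had 137, 136 and 135 against 113, 103 and 111 (0.31 ± 0.0431). Neither pair of groups overlapped, although Col1a1 itself, the main collagen, averaged 204 CPM with lean and 523 CPM with obese. Higd1a, a mitochondrial protein that supports respiration, rose by 0.30 ± 0.0554.

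Vegfa and Ndrg1 fell in E0771. Vegfa, the growth factor for blood vessels, had 112, 114 and 128 CPM with lean, 134, 145 and 145 with obese and 139, 130 and 137 in control medium. Lean libraries were below all others (-0.26 ± 0.0487 over obese, adjusted p = 6.50e-05). In NMuMG Vegfa had 123, 120 and 130 CPM with lean against 96.6, 85.9 and 81.8 with obese and 85.9, 86.5 and 84.8 in control medium, again without overlap but in the opposite direction (0.48 ± 0.0473, adjusted p = 3.36e-09). Ndrg1, a protein of the stress response, had 40.1, 41.1 and 45.2 CPM with lean and 46.7, 52.1 and 55.7 with obese in E0771 (-0.30 ± 0.0618). In NMuMG it had 44.2, 48.0 and 53.2 CPM with lean, 58.6, 64.7 and 63.3 with obese and 73.9, 77.0 and 75.9 in control medium. Here the 3 media were ordered without overlap, and lean was lower than obese by -0.37 ± 0.0524 and lower than control by -0.64 ± 0.0513 on the log2 scale.

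Of the 8 further targets tested in NMuMG, 1 rose (Vegfa) and 3 fell (Ndrg1, Ak4 and P4ha1). Over all genes 17.6% rose and 17.4% fell. Ak4 had 2.31, 1.63 and 1.45 CPM with lean against 3.09, 2.85 and 3.02 with obese, a fall of -0.74 ± 0.190 (adjusted p = 0.00242) with between 37 and 80 counts a library over the 3 media. P4ha1 was lower by -0.14 ± 0.0476, with overlapping libraries, and this call was lost in 4 of 13 alternatives (adjusted p up to 0.113). Bnip3, P4ha2, Higd1a and Ankrd37 were not called. Ankrd37, a small ankyrin repeat protein, was also not called in E0771 (0.30 ± 0.161). Car9, the carbonic anhydrase often used as a marker of low oxygen, stayed at no more than 0.669 CPM in every library of both lines, was tested only in E0771 and was not called there (-0.99 ± 0.559), except without obese replicate 1 (adjusted p = 0.0456).

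The response to the lean secretome differed between the lines, tested as an interaction in 1 fit of all 18 libraries. For lean minus obese, 21 of 30 genes were called, 19 with the higher change in E0771 and 2 with the lower, where 34.2% of all 16529 genes were called (18.8% higher, 15.5% lower). The median difference between lines was 0.29, against 0.03 over all genes. Pfkl, Pgam1, Egln1, P4ha1 and Ak4 were called higher in E0771 and lower in NMuMG, and Vegfa the other way round. The largest differences of the log2 fold changes were those of Ak4 (1.43 ± 0.160), Vegfa (-0.73 ± 0.0730), Ankrd37 (0.73 ± 0.245) and P4ha2 (0.70 ± 0.0796), followed by Hk2 (0.53), Pfkl (0.52), Slc16a1 (0.51) and Pfkfb3 (0.50). Ankrd37 had between 40 and 99 counts per library and was called within neither line. Its line difference was called in 15 of 17 alternatives. Gpi1, Pkm, Slc2a1 and Egln3 rose in both lines and Pfkp, Gapdh and Ndrg1 fell in both. Of these 7, Slc2a1 rose more in E0771 (0.46 ± 0.0918, adjusted p = 0.000496), and no difference was called for Pkm, Egln3 or Ndrg1. That of Pkm was called without E0771 obese replicate 1 (adjusted p = 0.0120) or lean replicate 1 (adjusted p = 0.0447), and that of Egln3 without NMuMG obese replicate 1 or with no filter.

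**Figure D4:**
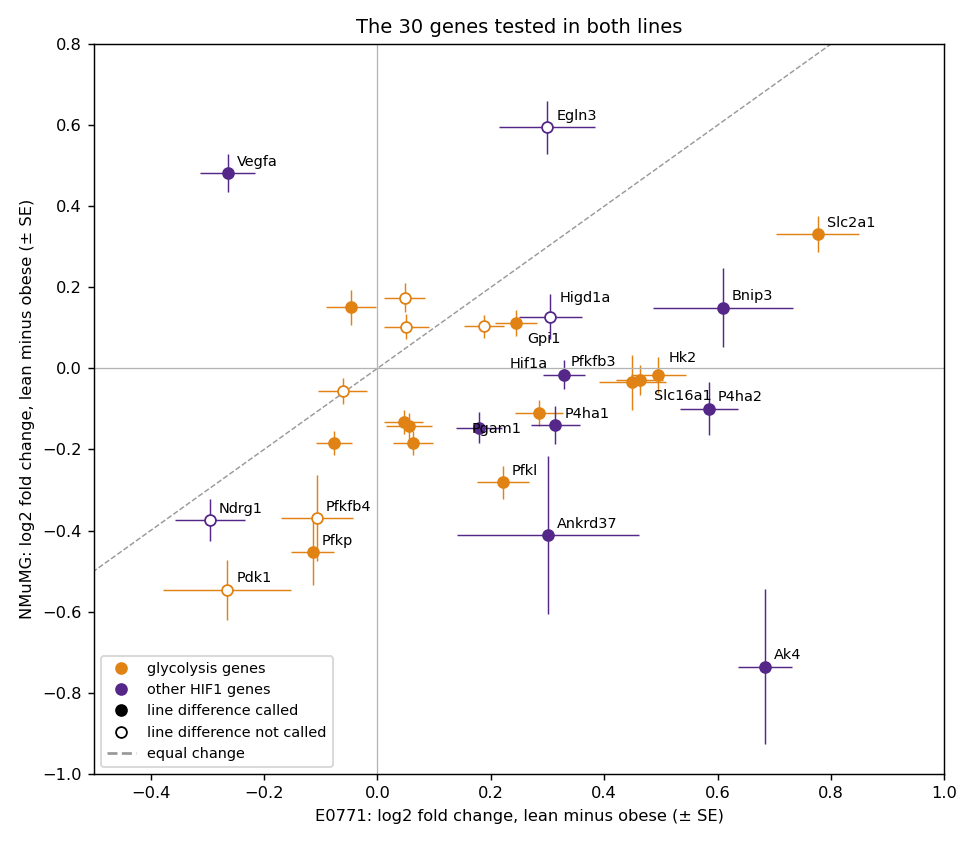
Log2 fold change of lean minus obese in E0771 (horizontal) against NMuMG (vertical) for the 30 genes tested in both lines, with SE bars; orange marks glycolysis genes and purple other HIF1 genes, and filled points have a called difference between the lines. Most points lie right of and below the dashed line of equal change, Ak4 farthest, and Vegfa lies on the opposite side.

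For lean minus control, which shares the lean libraries with the contrast above, the line difference was called for 23 of 30 genes, 21 higher and 2 lower in E0771, where 34.5% of all genes were called (19.4% higher, 15.1% lower). Both that were lower in E0771 were HIF1 genes, Egln3 (-0.59 ± 0.134) and Vegfa (-0.72 ± 0.0729). Ldha (0.36 ± 0.0452), Tpi1 (0.31 ± 0.0517), Pgam1 (0.56 ± 0.0531), Pfkl (0.58 ± 0.0653) and Pfkfb3 (0.65 ± 0.0911) rose over control in E0771 and fell in NMuMG. The fall over control in NMuMG was small for Pfkfb3 (-0.17, adjusted p = 0.0392) and Pgam1 (-0.10, adjusted p = 0.0130). That of Pfkfb3 was lost in 7 of 13 alternatives, DESeq2, the fit of all 18 libraries and leaving out any lean library or control replicate 2 or 3 (adjusted p up to 0.188). That of Pgam1 was lost without control replicate 2 or lean replicate 3 (adjusted p up to 0.0645).

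In both lines the obese secretome moved fewer of these genes from control medium than the lean secretome did. In E0771, 2 of 33 were called, both higher, where 2.61% of all genes were called (1.21% higher, 1.40% lower). None of the 13 HIF1 genes outside glycolysis was called by edgeR or DESeq2 (0 of 13), and 3 had an unadjusted p under 0.05. Obese and control libraries did not overlap for 13 of 33 (21.5% of all genes). The called genes were Aldoa (0.16 ± 0.0396, adjusted p = 0.0326) and Pgam1 (0.15 ± 0.0421, adjusted p = 0.0492). Both calls were lost with the replicate block (0 called) and when any of control replicates 1 and 2 or obese replicates 1 and 3 was left out (0 called each). In NMuMG, 9 of 32 were called, 8 higher and 1 lower, where 5.01% of all genes were called (2.34% higher, 2.66% lower), and libraries did not overlap for 16 of 32 (21.3% of all genes). Higher were Hk2 (0.21), Aldoa (0.13), Gapdh (0.11), Eno1 (0.10), Slc2a1 (0.23), Slc16a1 (0.15), Pfkfb4 (0.35) and Egln3 (0.43), and Ndrg1 was lower (-0.26). The calls for Pfkfb4 and Eno1 were lost in 10 and 8 of 13 alternatives (adjusted p up to 0.163 and 0.210). The 7 glycolysis genes among them became 4 with library totals in place of TMM, a setting that also moved the higher share of all called genes from 46.8% to 35.8%. They became 3 when any of replicates 1 and 3 of control or of obese was left out. A line difference was called by edgeR for 0 of 19 glycolysis genes (5 with an unadjusted p under 0.05, 1 called by DESeq2) and for 1 of 11 other HIF1 genes, Ndrg1 (0.46 ± 0.0838, adjusted p = 0.00133), where 1.69% of all genes were called (1.06% higher, 0.623% lower in E0771).

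Other genes of these pathways, from lists written by function, gave a mixed picture between lean and obese. In E0771, 18 of 30 further glycolysis and pyruvate genes were tested and 4 rose and 6 fell, near the share over all genes. The largest changes were those of Pck2 (-1.69 ± 0.0783), the mitochondrial enzyme that makes phosphoenolpyruvate, from 174 ± 18.8 CPM with obese to 54.2 ± 3.74 with lean, of Pdk2 (-1.33 ± 0.112), a relative of Pdk1, and of Hkdc1 (1.14 ± 0.383), a hexokinase relative at under 1 CPM. In NMuMG, 21 were tested and 9 rose and 4 fell, where 17.6% of all genes rose and 17.4% fell. The largest changes there were those of the neuronal enolase Eno2 (-1.43 ± 0.242), the muscle fructose bisphosphatase Fbp2 (1.32 ± 0.125) and Pdk4 (1.25 ± 0.160), another relative of Pdk1.

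Of 19 further HIF targets, 9 rose and 4 fell of 17 tested in E0771, where 25.8% of all genes rose and 26.9% fell. In NMuMG 8 rose and 3 fell of 19 tested, where 17.6% of all genes rose and 17.4% fell. Gbe1, the glycogen branching enzyme, rose from 11.4 ± 3.48 to 32.1 ± 0.444 CPM in E0771 (1.49 ± 0.149) and from 14.8 ± 1.46 to 23.8 ± 2.53 CPM in NMuMG (0.67 ± 0.0796). Ero1a, an oxidase of the endoplasmic reticulum, rose in E0771 (0.66 ± 0.0496) and Stc2, a secreted glycoprotein, rose in NMuMG (0.44 ± 0.0799). Of 13 other genes of the HIF machinery, 3 rose and 4 fell of 10 tested in E0771, with Egln2 (-0.30), Rbx1 (-0.28) and Eloc (0.19) changing most. In NMuMG 1 rose and 3 fell of 12 tested, with Epas1, the HIF2 subunit (0.29), Egln2 (-0.26) and Arnt (-0.15) changing most. Egln2 is another of the hydroxylases and was lower with the lean secretome in both lines.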

How the data were processed

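The authors deposited raw counts per Ensembl gene ID for the 18 mouse libraries, checked here to be whole numbers with library totals that differ. Per the labels' protocols, the libraries were directional, made from poly(A) RNA and read as paired 150 bp. Per the submitters' processing notes, cutadapt 1.16, STAR 2.7.9a, featureCounts 1.6.3 and GRCm39 were used; the annotation release, the strand setting and the handling of multi-mapping reads are not given in the sources used here. The human libraries were not analysed here.

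Symbols and exon lengths came from GENCODE M21, which named 52073 of the 56980 IDs and 99.68% of the counts. Aldoa had 2 IDs, and that with the higher count was used. Groups were taken from the labels. Each line was fitted with its 3 media in edgeR 4.0.16 under R 4.3.3 (filterByExpr, TMM factors from 0.987 to 1.01, robust quasi-likelihood F test), and differences between lines in 1 fit of 18 libraries and 6 groups. The Benjamini-Hochberg adjustment ran over all genes tested in a contrast, and genes were called at an adjusted p under 0.05. The SE is the absolute log2 fold change over the square root of F. CPM in the text used library totals. The procedure was tested on simulated data. Replicate pairs differed beyond counting error (chi-square per degree of freedom from 2.30 to 8.44), and the median SE of a log2 fold change between media was from 0.0697 to 0.0725.

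The members and lists were chosen with earlier results of these data known. All 35 members may be named. From 3 lists of other pathway genes, the 3 with the largest change among those called between lean and obese were named per line, except 1 gene that is not reported here. Alternatives were DESeq2 1.42.0 and its size factors, library totals, no filter, a replicate block, other sets of libraries in the fit, an absolute log2 fold change of at least 0.5, and leaving out each library. Promoter sequences are from RefSeq (GRCm38.p6) and were searched in Python 3.11.15.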

Additional observations from a re-analysis of the deposited data

Results flagged for a closer look

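The results listed here are those where the change between 2 media differed between E0771 and NMuMG by the interaction test in edgeR (adjusted p under 0.05). Values are the log2 fold change in E0771 minus that in NMuMG, and line and growth medium cannot be told apart in any of them.

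For lean minus obese, the difference among the enzymes was 0.53 for Hk2, 0.15 for Gpi1, 0.52 for Pfkl, -0.18 for Pfkm, 0.36 for Pfkp, 0.21 for Tpi1, 0.12 for Gapdh, 0.41 for Pgam1, 0.19 for Eno1 and 0.26 for Ldha. Among transporters and flux regulators it was 0.46 for Slc2a1, 0.51 for Slc16a1 and 0.50 for Pfkfb3. Among the HIF1 genes outside glycolysis it was 0.36 for Hif1a, 0.34 for Egln1, 0.48 for Bnip3, -0.73 for Vegfa, 0.73 for Ankrd37, 0.47 for P4ha1, 0.70 for P4ha2 and 1.43 for Ak4. Ankrd37 was not called within either line. The calls for Gpi1, Pfkm, Gapdh, Bnip3 and Ankrd37 were lost in at least 1 of 17 alternatives, with adjusted p up to 0.0556, 0.0624, 0.196, 0.0885 and 0.0576.

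For lean minus control, the difference among the enzymes was 0.30 for Hk2, 0.14 for Gpi1, 0.58 for Pfkl, 0.36 for Pfkp, 0.31 for Tpi1, 0.13 for Gapdh, 0.56 for Pgam1, 0.17 for Eno1, 0.12 for Pkm and 0.36 for Ldha. Among transporters and flux regulators it was 0.44 for Slc2a1, 0.39 for Slc16a1 and 0.65 for Pfkfb3. Among the other HIF1 genes it was 0.47 for Hif1a, 0.38 for Egln1, -0.59 for Egln3, 0.59 for Bnip3, -0.72 for Vegfa, 0.56 for Ndrg1, 0.51 for P4ha1, 0.62 for P4ha2, 1.13 for Ak4 and 0.33 for Higd1a. The calls for Gpi1, Gapdh and Pkm were lost in 4, 5 and 11 of 17 alternatives. For obese minus control the difference was 0.46 for Ndrg1.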

How the results depend on the processing

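No gene's fold change changed sign with its call. With an absolute log2 fold change of at least 0.5 required, E0771 kept 2 glycolysis genes and 4 other HIF1 genes for lean minus obese, and 2 and 4 for lean minus control. NMuMG kept 2 and 2 for lean minus obese and 3 glycolysis genes for lean minus control, and the line difference 4 and 4 for lean minus obese and 3 glycolysis genes for lean minus control. For obese minus control this threshold left 0 glycolysis genes in E0771, 0 and 0 in NMuMG and 0 other HIF1 genes in the line difference. For obese minus control, DESeq2's Wald test called 4 glycolysis genes in E0771 and 1 (Hk2) in the line difference, no filter gave 1 other HIF1 gene (Ndrg1) in E0771 and 2 in the line difference, and library totals gave 4 glycolysis genes in NMuMG. Leaving out 1 library gave 0 to 3 glycolysis genes in E0771 and 3 to 5 in NMuMG for obese minus control, and 3 to 5 other HIF1 genes in NMuMG for lean minus control, with 5 without lean replicate 1. The cause was not tested. The other 271 counts under alternatives were within 1.5 times those reported. Low counts limit Aldoc, Ldhb and Car9 in E0771, Slc16a3, Adm, Car9 and Ak4 in NMuMG, and Ankrd37 in both lines.

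The labels do not say whether replicate numbers pair the libraries, and no pairing was detected. Across genes, same-numbered libraries of different media had correlations of their deviations from -0.135 to 0.119 in E0771 and from -0.037 to 0.021 in NMuMG. Deviations from a mean of 3 libraries cannot exclude shared batches. With the replicate block, the glycolysis genes called for obese minus control went from 2 to 0 in E0771 and from 7 to 5 in NMuMG, and the call for Gapdh was lost for lean minus obese in E0771 and for lean minus control in NMuMG, while Pdk1 gained a call for lean minus obese in E0771. It changed the count of calls by less than 1.5 times elsewhere.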
